A study of Arabidopsis thaliana with 12 samples.

Results

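The genes described here are 43 nuclear loci of Arabidopsis thaliana that encode the thylakoid proteins of photosynthesis and the small subunit of Rubisco. They were chosen by function and locus name from the 28775 loci counted, with earlier results of these data known. They comprise 11 genes of the photosystem II antenna (LHCB), 4 of the photosystem I antenna (LHCA), 10 photosystem II subunits, 10 photosystem I subunits, 4 genes of electron carriers and ATP synthase, and 4 genes of the small Rubisco subunit (RBCS). All 43 were found in the files and all 43 passed the filter on low counts, which 17938 loci passed.

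The study compared whole plants of the Ws strain, 14 days old and grown on MS medium, to find genes regulated by the growth-regulating factors GRF1 and GRF3. There were 3 libraries from each of 4 genotypes. These were 35S:GRF1-GFP plants, which carry GRF1 fused to green fluorescent protein under the constitutive 35S promoter, 35S:GRF3-GFP plants, which carry the corresponding GRF3 fusion, plants of the mutant grf1/grf2/grf3, and the Ws wild type without a transgene. The labels do not say whether each overexpressor was 1 line, how many plants were pooled in a library, or at what hour of the day they were harvested.

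Light-harvesting chlorophyll proteins gather light for the photosystems. LHCB1, LHCB2 and LHCB3 form the trimers of LHCII, the outer antenna of photosystem II, while LHCB4, LHCB5 and LHCB6 are single proteins that link the trimers to the core. LHCA proteins serve photosystem I. Electrons pass from photosystem II through the cytochrome b6f complex and plastocyanin to photosystem I and on to ferredoxin and NADP, and Rubisco fixes carbon dioxide in the stroma. Nuclear genes supply the antennae, many small subunits and the small subunit of Rubisco, chloroplast genes supply the reaction centre cores, and many of the nuclear genes are present as several close copies.

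Total gene counts ran from 2820223 to 14277574 per library. The 43 genes took between 6.68% and 9.74% of them. Wild-type replicate 3 stood apart, with the lowest total, the lowest share for the 43 genes and the highest share for nuclear ribosomal RNA loci (32.0%, against 13.2% to 24.6% in the other 11 libraries). Levels are given as CPM, counts scaled for the depth and composition of each library. GRF1 had 149.9 ± 35.05 CPM in the 35S:GRF1-GFP libraries and 17.1 ± 1.57 CPM in the wild-type libraries, and GRF3 had 209.9 ± 13.7 CPM in the 35S:GRF3-GFP libraries and 22.5 ± 6.78 CPM in wild type (mean ± SD, n = 3 each). In the libraries labelled grf1/grf2/grf3, GRF2 and GRF1 were low at 0.929 ± 0.253 and 8.58 ± 1.25 CPM, against 11.1 ± 2.35 and 17.1 ± 1.57 CPM in wild type. GRF3 was near the wild-type level, at 22.7 ± 2.62 CPM there and 22.5 ± 6.78 CPM in wild type. The labels do not give the alleles, so whether the counts of GRF3 check the label is unknown. GRF2 was also low in both overexpressors, at 0.742 ± 0.493 CPM in the 35S:GRF1-GFP and 0.869 ± 0.275 CPM in the 35S:GRF3-GFP libraries.

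The genes were called changed where edgeR's quasi-likelihood test gave an adjusted p under 0.05 over all 17938 genes in 1 fit to the 12 libraries, and called or not called refers to this fit unless another of the 24 alternative settings is named. In 35S:GRF1-GFP plants against wild type, 8 of the 43 were lower and 4 were higher. Over all genes tested, 21.8% were called in this comparison, 11.8% lower and 10% higher, and of the 43 genes 27.9% were called, 18.6% lower and 9.3% higher. With the trend of the changes on transcript length removed, 34.9% of the 43 were lower against 7.04% of all genes, and 2.33% were higher against 6.76%. With the trend on GC content removed instead, 14.0% were lower against 11.3%, and 18.6% were higher against 9.63%. With both trends removed, 25.6% were lower against 7.09%, and 2.33% were higher against 6.95%. The calls were unevenly spread over the complexes. Of the 8 lower genes, 7 belonged to the photosystem II antenna and the other one was the photosystem I gene PSAD2. Of the 4 higher genes, 2 were RBCS genes and 2 were the photosystem I genes PSAL and PSAO. No gene of the photosystem I antenna, photosystem II or the electron carriers was called.

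In 35S:GRF3-GFP plants 1 member was higher (RBCS1B) and 1 lower (PSAD2), where 12.4% of all genes were called, 6.07% higher and 6.34% lower. In the libraries labelled grf1/grf2/grf3, LHCB4.2 and PSAL were higher and RBCS1B was lower than in wild type, where 4.88% of all genes were called, 2.11% higher and 2.77% lower. The median log2 change over the 43 genes was 0.02 in 35S:GRF1-GFP plants, 0.05 in 35S:GRF3-GFP plants and 0.11 in the libraries labelled grf1/grf2/grf3. Over all genes tested the medians were 0.00, 0.00 and 0.01. A test for any difference among the 4 genotypes called 13 of the 43, where 27.2% of all genes were called. These p-values measure the spread between 3 libraries per genotype, and in whole plants fewer green cells and less RNA per green cell cannot be told apart.

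**Figure D1:**
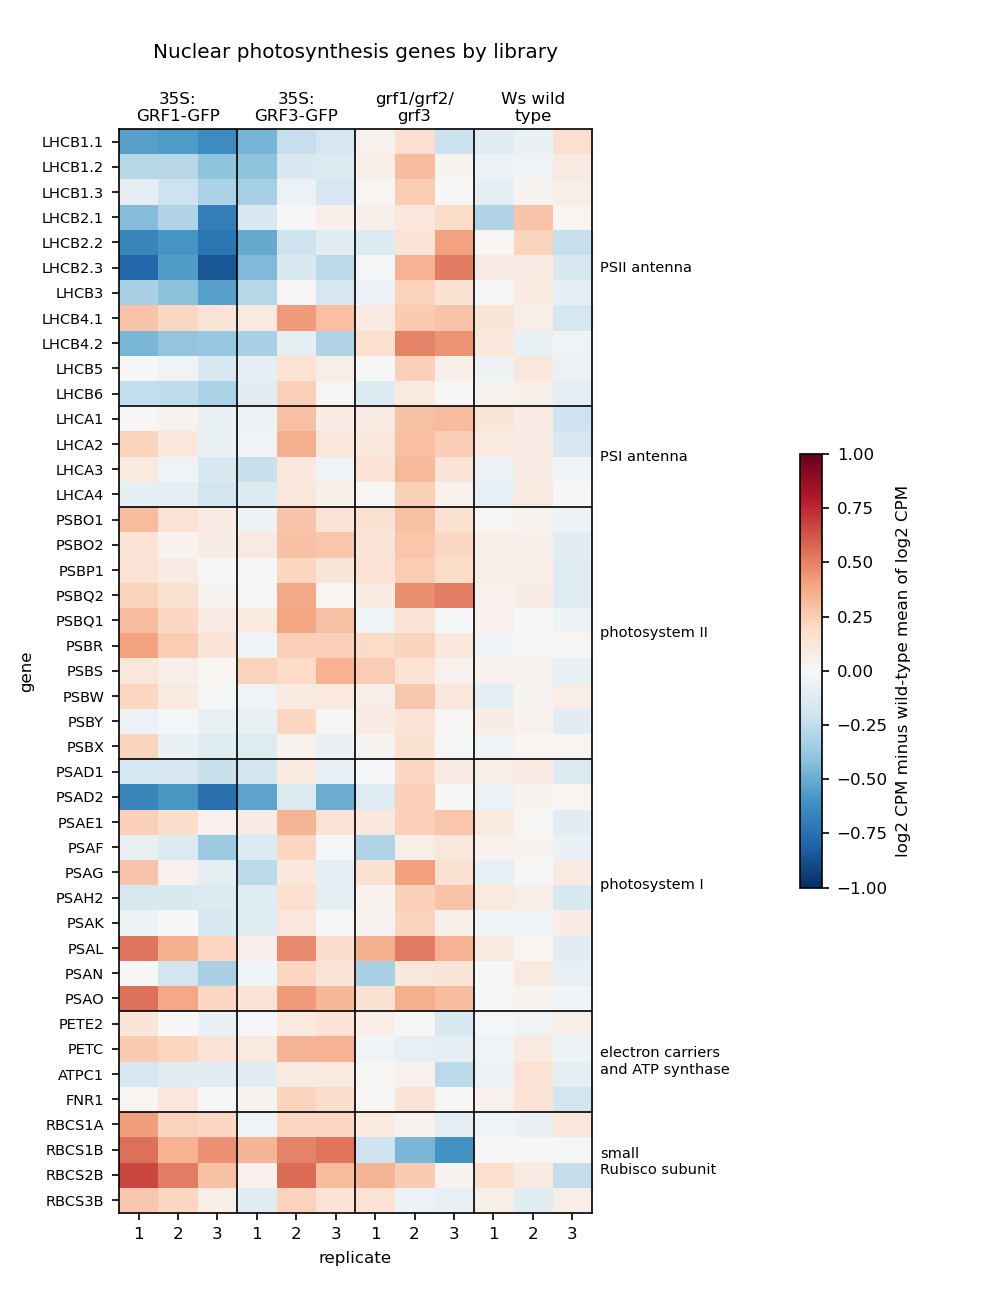
Level of each of the 43 genes in each of the 12 libraries, as log2 CPM minus the mean log2 CPM of the 3 wild-type libraries. Columns are libraries by genotype and replicate, rows are genes by complex. Blue squares (below wild type) gather at LHCB1.1, LHCB2.2, LHCB2.3 and PSAD2 in the 35S:GRF1-GFP columns, and RBCS1B is red in both overexpressors and blue in the columns labelled grf1/grf2/grf3.

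**Figure D2:**
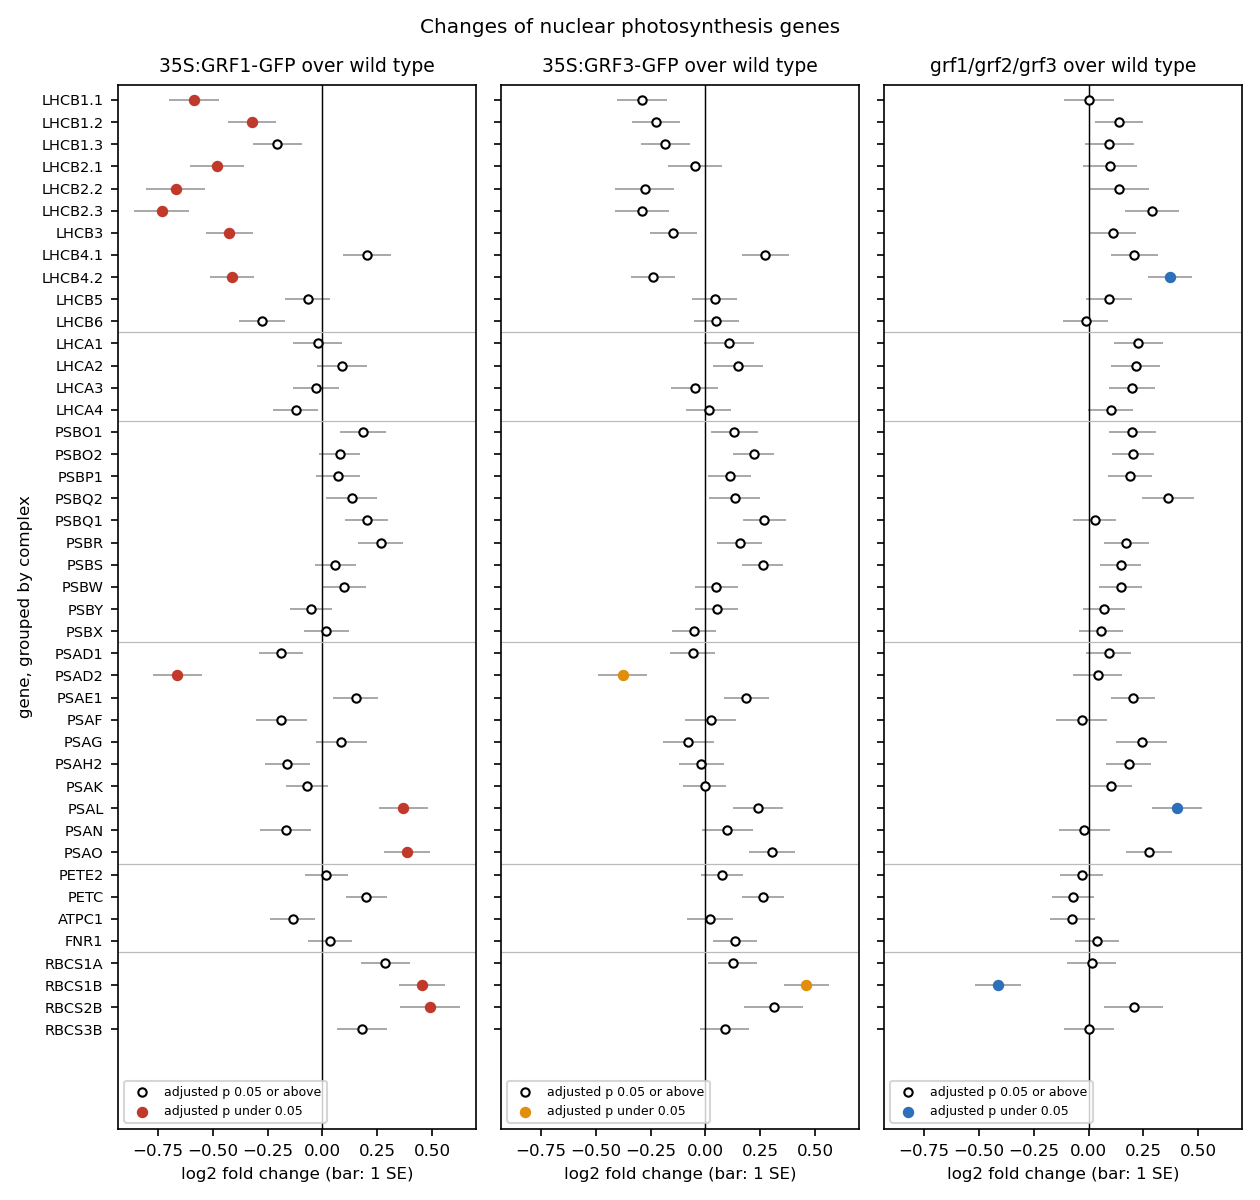
Log2 fold change over wild type of each gene in the 3 comparisons with wild type, with bars of 1 standard error (SE) from edgeR's quasi-likelihood fit. Filled points have an adjusted p under 0.05: 12 genes in 35S:GRF1-GFP, 2 in 35S:GRF3-GFP and 3 in grf1/grf2/grf3.

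The sums of CPM over all 43 genes overlapped between either overexpressor and wild type, and all 3 labelled grf1/grf2/grf3 lay above wild type. The 43 genes summed to 83338 ± 5454 CPM in 35S:GRF1-GFP libraries, 85118 ± 8274 CPM in 35S:GRF3-GFP libraries, 89879 ± 4835 CPM in libraries labelled grf1/grf2/grf3 and 83434 ± 1099 CPM in wild-type libraries (mean ± SD, n = 3 each). The 11 photosystem II antenna genes summed to 24178, 23424 and 21681 CPM in 35S:GRF1-GFP libraries, 22823, 27504 and 26217 in 35S:GRF3-GFP libraries, 28115, 32926 and 29128 in libraries labelled grf1/grf2/grf3 and 26939, 28715 and 28289.8 in wild-type libraries. All 35S:GRF1-GFP sums lay below all wild-type sums, and the 35S:GRF3-GFP and wild-type sums overlapped. The 4 RBCS genes summed to 22639, 20377 and 19321 CPM in 35S:GRF1-GFP libraries, 16555, 20439.6 and 19663 in 35S:GRF3-GFP libraries, 18471, 17131 and 15842 in libraries labelled grf1/grf2/grf3 and 17074, 16194 and 17531 in wild type. Here all 35S:GRF1-GFP sums lay above all wild-type sums. With 3 libraries against 3, an exact two-sided permutation test cannot give a p below 0.1, so the sums are given without a test.

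Levels can be compared between genes only per length, as CPM per kilobase of exon. On that scale RBCS1A was the most abundant member in wild type (7575 ± 499 CPM per kilobase, SD over 3 libraries), followed by LHCB1.3 (7267 ± 427), LHCB1.2 (3978 ± 223) and RBCS3B (3697 ± 271). RBCS1A and LHCB1.3 differed by less than the SD of either, and LHCB1.2 exceeded RBCS3B by slightly more than the SD of either. Below them came LHCA4 (2645 ± 156), which led the photosystem I antenna, PSBR (2498 ± 40.98), which led photosystem II, and LHCB1.1 (2466 ± 263), whose ranges of mean ± SD overlapped. PSAG led photosystem I (1650.5 ± 101) and the plastocyanin gene PETE2 led the carriers (1200.1 ± 41.2). At the low end were LHCB2.1 (495 ± 99.6), FNR1 (443 ± 49.6), RBCS1B (442 ± 2.37), LHCB2.3 (276 ± 26.2) and LHCB4.2 (207 ± 13.6). The place of RBCS1B rests on its annotated length of 1894 bp, against 935 to 1268 bp for the other RBCS genes. Among the genes called in 35S:GRF1-GFP plants, the lower ones thus included the scarcest copies of the antenna as well as LHCB1.1 and LHCB1.2.

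The outer antenna holds close copies, which bears on how reads can be assigned. LHCB1.1, LHCB1.2 and LHCB1.3 lie within 7 kilobases of chromosome 1, at chr1:10474656-10475969 and chr1:10472280-10473502 on the minus strand and chr1:10477885-10479114 on the plus strand (build TAIR10.1, RefSeq), and each has 1 exon. The first 120 coding bases of each, 5′ to 3′ on its own strand and from RefSeq, are shown because they let a reader see how alike the copies are. Capitals mark the 9 positions at which the 3 copies are not all the same.
LHCB1.1: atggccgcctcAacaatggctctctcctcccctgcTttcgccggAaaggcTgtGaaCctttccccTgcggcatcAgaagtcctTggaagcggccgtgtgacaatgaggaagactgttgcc
LHCB1.2: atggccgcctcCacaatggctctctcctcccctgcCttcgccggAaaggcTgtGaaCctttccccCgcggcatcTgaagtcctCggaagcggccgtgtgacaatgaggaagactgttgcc
LHCB1.3: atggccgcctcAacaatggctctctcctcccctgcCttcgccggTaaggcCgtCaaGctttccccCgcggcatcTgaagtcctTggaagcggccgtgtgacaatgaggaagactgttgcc
Within these 120 bases LHCB1.2 differs from LHCB1.1 at 5 positions and LHCB1.3 at 7. Runs of 50 bases that also occur exactly in another locus made up 20.5% of the LHCB1.1 transcript, 10.7% of LHCB1.2 and 17.02% of LHCB1.3. The shares were 22.7% for LHCB2.1 and 28.1% for LHCB2.2, which match each other, 10.8% for LHCA2, 13.98% for RBCS1B, 21.4% for RBCS2B, 18.3% for RBCS3B and 1.48% for RBCS1A. The other 33 genes shared none. Counts of those 10 genes are therefore uncertain, since reads with several equally good positions were not counted. Alignments with several positions made up 60.4% to 63.6% of all rows in the 35S:GRF1-GFP libraries, 54.4% to 62.8% in the 35S:GRF3-GFP libraries, 65.0% to 68.1% in the libraries labelled grf1/grf2/grf3 and 64.1% to 73.4% in the wild-type libraries. Every overexpressor library thus lay below every other library in this share, and its part in the results for those 10 genes was not tested.

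Among the LHCII trimer genes, 6 of 7 were lower in 35S:GRF1-GFP plants than in wild type, where 11.8% of all genes were lower. LHCB2.3 (AT3G27690) had 234, 274 and 223 CPM in the 35S:GRF1-GFP libraries, 297, 364 and 336 in the 35S:GRF3-GFP libraries, 398, 513 and 577 in the libraries labelled grf1/grf2/grf3, and 427, 426 and 361 in the wild-type libraries. All 3 of the 35S:GRF1-GFP values lay below every value of the other genotypes. Its log2 fold change over wild type was -0.73 ± 0.12 (± SE) in 35S:GRF1-GFP plants (edgeR adjusted p = 0.000273), -0.29 ± 0.12 in 35S:GRF3-GFP plants (0.126) and 0.29 ± 0.12 in the libraries labelled grf1/grf2/grf3 (0.197). Exon sequence shared with a neighbouring gene on the opposite strand made up 38.6% of LHCB2.3, so its count depends on the strand setting, which is not given in the sources used here.

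LHCB2.2 (AT2G05070) had 929, 977 and 889 CPM in the 35S:GRF1-GFP libraries, 1035, 1273 and 1357 in the 35S:GRF3-GFP libraries, 1339, 1618 and 1944 in the libraries labelled grf1/grf2/grf3, and 1482, 1710.4 and 1249 in the wild-type libraries. Again those of 35S:GRF1-GFP were the lowest 3 of the 12, and the 35S:GRF3-GFP values overlapped those of wild type. The log2 fold change of LHCB2.2 was -0.67 ± 0.13 in 35S:GRF1-GFP plants (edgeR adjusted p = 0.00139). LHCB2.1 (AT2G05100), its closest copy, had 508, 558 and 428 CPM in the 35S:GRF1-GFP libraries, 618, 689 and 709 in the 35S:GRF3-GFP libraries, 711, 744 and 779.7 in the libraries labelled grf1/grf2/grf3, and 556, 836 and 695 in the wild-type libraries. Its 35S:GRF1-GFP and wild-type values overlapped, because wild-type replicate 1 was low. LHCB2.1 fell by 0.48 ± 0.12 on the log2 scale (edgeR adjusted p = 0.00768), a call that was lost without wild-type replicate 2 (adjusted p = 0.0797).

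LHCB1.1 (AT1G29920) had 2213, 2180.5 and 2084 CPM in the 35S:GRF1-GFP libraries, 2338, 2750.0 and 2866 in the 35S:GRF3-GFP libraries, 3322, 3620.5 and 2786 in the libraries labelled grf1/grf2/grf3, and 3005, 3079 and 3636 in the wild-type libraries. Both overexpressors lay below every wild-type library, and the 35S:GRF1-GFP values were the lowest. The log2 fold change of LHCB1.1 was -0.59 ± 0.11 in 35S:GRF1-GFP plants (edgeR adjusted p = 0.000859) and -0.29 ± 0.11 in 35S:GRF3-GFP plants (0.09700, not called). LHCB1.2 (AT1G29910) had 3984, 4004 and 3679 CPM in the 35S:GRF1-GFP libraries, 3687, 4375 and 4409 in the 35S:GRF3-GFP libraries, 5084, 6027 and 4949 in the libraries labelled grf1/grf2/grf3, and 4678, 4738 and 5178 in the wild-type libraries. The 35S:GRF1-GFP and 35S:GRF3-GFP values overlapped each other and lay below wild type. Its change in 35S:GRF1-GFP plants, -0.32 ± 0.11 (edgeR adjusted p = 0.0359), lost its call when any 1 of the 3 overexpressor or 3 wild-type libraries was left out (adjusted p = 0.0557 without wild-type replicate 1, up to 0.1300 without wild-type replicate 3). The call was also lost with upper-quartile factors (0.0548), with the GC trend removed (0.477) and with both trends removed (0.118).

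LHCB1.3 (AT1G29930), the most abundant per length of the antenna genes among the 43, had 8346, 7717 and 7181 CPM in the 35S:GRF1-GFP libraries, 7090.3, 8576 and 7941 in the 35S:GRF3-GFP libraries, 9021, 10653 and 8965 in the libraries labelled grf1/grf2/grf3, and 8350.4, 9101 and 9364 in the wild-type libraries. Its 35S:GRF1-GFP values lay just below those of wild type, with a narrow gap. It was not called in any comparison, and its change in 35S:GRF1-GFP plants was -0.21 ± 0.11 (edgeR adjusted p = 0.197). With the length trend removed the change of LHCB1.3 was -0.35 and was called lower (0.0459), and with the GC trend removed it was -0.01 (0.959). LHCB3 (AT5G54270), a further protein of the trimer, had 1623, 1527 and 1391 CPM in the 35S:GRF1-GFP libraries, 1666, 2039.9 and 1802 in the 35S:GRF3-GFP libraries, 1945, 2386 and 2253 in the libraries labelled grf1/grf2/grf3, and 2011, 2176 and 1908 in the wild-type libraries. Its 35S:GRF1-GFP values lay below all 9 others, with a log2 fold change of -0.43 ± 0.11 over wild type (edgeR adjusted p = 0.00669). Against wild type, the 35S:GRF3-GFP change of all 7 trimer genes lay between -0.29 and -0.05 with none called, and that of the libraries labelled grf1/grf2/grf3 between 0.00 and 0.29 with none called. These comparisons share the wild-type libraries. With the length trend removed LHCB1.1 and LHCB2.2 were called lower in 35S:GRF3-GFP plants as well. LHCB1.1, LHCB2.2, LHCB2.3 and LHCB3, together with PSAD2, kept their lower call in 35S:GRF1-GFP plants under all 24 alternative settings, each left-out library among them.

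The inner antenna did not move as 1 group, and the copies of LHCB4 (CP29) separated. LHCB4.2 (AT3G08940) had 193, 202 and 203 CPM in the 35S:GRF1-GFP libraries, 212, 249 and 215 in the 35S:GRF3-GFP libraries, 296, 374 and 362 in the libraries labelled grf1/grf2/grf3, and 285, 252 and 259 in the wild-type libraries. No 2 of the 35S:GRF1-GFP, wild-type and grf1/grf2/grf3 groups overlapped: the 35S:GRF1-GFP values were lowest and those labelled grf1/grf2/grf3 highest. LHCB4.2 changed by -0.41 ± 0.10 in 35S:GRF1-GFP plants (edgeR adjusted p = 0.00501), by -0.24 ± 0.10 in 35S:GRF3-GFP plants (0.1200, not called) and by 0.37 ± 0.10 in the libraries labelled grf1/grf2/grf3 (0.0309). The first call was lost with the GC trend removed (adjusted p = 0.147), and the last without grf1/grf2/grf3 replicate 2 (0.1300) or 3 (0.117) or wild-type replicate 2 (0.1400) or 3 (0.0824), in a fit to those 2 genotypes only (0.07900) and with a replicate block and the length trend removed (0.0527).

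LHCB4.1 (AT5G01530), the abundant copy of the same protein, had 2039, 1936 and 1829 CPM in the 35S:GRF1-GFP libraries, 1793, 2244 and 2059 in the 35S:GRF3-GFP libraries, 1785, 2006 and 2038 in the libraries labelled grf1/grf2/grf3, and 1824, 1738 and 1478 in the wild-type libraries. It was slightly above wild type in every 35S:GRF1-GFP library and was not called (log2 fold change 0.20 ± 0.11, edgeR adjusted p = 0.185, in 35S:GRF1-GFP plants). With the GC trend removed, under which LHCB4.2 lost its call, LHCB4.1 was called higher in 35S:GRF1-GFP plants (0.41, adjusted p = 0.0134) and in 35S:GRF3-GFP plants (0.43, 0.0178). LHCB5 (AT4G10340, CP26) had 2681 ± 145 CPM in 35S:GRF1-GFP and 2809 ± 192 CPM in wild-type libraries and was not called. LHCB6 (AT1G15820, CP24) had 1320.4, 1312 and 1259 CPM in the 35S:GRF1-GFP libraries, against 1609, 1626 and 1474 in the wild-type libraries. These groups did not overlap, but the change of -0.28 ± 0.10 missed the threshold (edgeR adjusted p = 0.0575). LHCB6 was called lower in 7 of the 24 alternative settings, among them DESeq2 and removal of the length trend (-0.42, adjusted p = 0.00744), while with the GC trend removed its change was -0.02 (0.933).

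The 250 bases before the annotated start of the LHCB4 copies are shown, since the copies differed in their changes. They are from RefSeq TAIR10.1, at chr3:2717307-2717556 for LHCB4.2 and chr5:208616-208865 for LHCB4.1, both on the plus strand, 5′ to 3′. Capitals mark each G-box (CACGTG) or I-box core (GATAAG or its reverse complement), motifs known from light-regulated plant promoters.
LHCB4.2: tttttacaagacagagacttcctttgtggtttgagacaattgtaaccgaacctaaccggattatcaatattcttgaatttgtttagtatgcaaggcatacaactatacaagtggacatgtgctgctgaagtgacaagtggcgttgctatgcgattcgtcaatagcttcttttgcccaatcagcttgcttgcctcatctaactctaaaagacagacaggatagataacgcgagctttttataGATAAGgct
LHCB4.1: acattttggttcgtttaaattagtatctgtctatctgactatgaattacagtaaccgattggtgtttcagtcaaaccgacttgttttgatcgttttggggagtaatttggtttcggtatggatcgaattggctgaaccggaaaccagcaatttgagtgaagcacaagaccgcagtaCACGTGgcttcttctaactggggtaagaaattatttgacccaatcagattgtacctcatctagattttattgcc
The window of LHCB4.2 holds an I-box core near its end and no G-box, and that of LHCB4.1 holds a G-box and no I-box core.

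No gene of the photosystem I antenna passed the test. LHCA4 (AT3G47470) had 3219, 3206 and 3016 CPM in the 35S:GRF1-GFP libraries, 3112, 3705 and 3563 in the 35S:GRF3-GFP libraries, 3456, 4031 and 3532 in the libraries labelled grf1/grf2/grf3, and 3232, 3636 and 3409 in the wild-type libraries. The 35S:GRF1-GFP values lay just below wild type, and the other genotypes overlapped it. LHCA2 (AT3G61470) had 1926, 1772 and 1574 CPM in the 35S:GRF1-GFP libraries, 1606, 2106 and 1782 in the 35S:GRF3-GFP libraries, 1776, 2030.4 and 1948 in the libraries labelled grf1/grf2/grf3, and 1749.7, 1731 and 1474 in the wild-type libraries. Its values labelled grf1/grf2/grf3 lay just above wild type. None of LHCA1 to LHCA4 was called in any comparison. Their log2 changes ran from -0.12 to 0.09 in 35S:GRF1-GFP plants, from -0.05 to 0.15 in 35S:GRF3-GFP plants and from 0.10 to 0.23 in the libraries labelled grf1/grf2/grf3.

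None of the photosystem II subunits was called in a comparison of 2 genotypes by edgeR in the fit to all libraries. The 10 genes encode the extrinsic proteins of the oxygen-evolving complex (PSBO1, PSBO2, PSBP1, PSBQ1 and PSBQ2), PSBS, which triggers the dissipation of excess light, PSBR, and the small membrane proteins PSBW, PSBX and PSBY. PSBR (AT1G79040), the most abundant per length, had 2592, 2336 and 2139 CPM in the 35S:GRF1-GFP libraries, 1924, 2307 and 2312 in the 35S:GRF3-GFP libraries, 2237, 2279 and 2104 in the libraries labelled grf1/grf2/grf3, and 1921, 1974 and 1979 in the wild-type libraries. The 35S:GRF1-GFP values lay above wild type, and the change of 0.27 ± 0.10 missed the threshold (edgeR adjusted p = 0.0652). PSBS (AT1G44575) had 888, 848 and 829 CPM in the 35S:GRF1-GFP libraries, 964, 941 and 1045 in the 35S:GRF3-GFP libraries, 976, 905 and 844 in the libraries labelled grf1/grf2/grf3, and 841, 843 and 777 in the wild-type libraries. The 35S:GRF3-GFP values lay above those of wild type, with a change of 0.26 ± 0.09 that also missed the threshold (edgeR adjusted p = 0.0674). Over the 10 genes the changes ran from -0.05 to 0.27 in 35S:GRF1-GFP plants, from -0.05 to 0.27 in 35S:GRF3-GFP plants and from 0.03 to 0.36 in the libraries labelled grf1/grf2/grf3. The end of the last range was PSBQ2, with a change of 0.36 ± 0.12 and an edgeR adjusted p of 0.0778. Under alternative settings some were called higher: in 35S:GRF1-GFP plants PSBR in 7 of 24 (DESeq2 among them) and PSBO1 in 1, in 35S:GRF3-GFP plants PSBS in 3 (DESeq2 among them), PSBQ1 in 2 and PSBO2 in 1, and in the libraries labelled grf1/grf2/grf3 PSBQ2 in 2.

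In photosystem I, 3 of 10 genes were called in 35S:GRF1-GFP plants, 1 lower and 2 higher, where 21.8% of all genes were called. PSAD2 encodes 1 of 2 copies of the stromal subunit at which ferredoxin docks. PSAD2 (AT1G03130) had 602, 637 and 567 CPM in the 35S:GRF1-GFP libraries, 661, 863 and 676 in the 35S:GRF3-GFP libraries, 871, 1126 and 949 in the libraries labelled grf1/grf2/grf3, and 916, 976 and 968 in the wild-type libraries. Both overexpressors lay below every wild-type library, and the libraries labelled grf1/grf2/grf3 overlapped wild type. PSAD2 changed by -0.66 ± 0.11 in 35S:GRF1-GFP plants (edgeR adjusted p = 0.0002200) and by -0.38 ± 0.11 in 35S:GRF3-GFP plants (0.0288). The second call was lost without 35S:GRF3-GFP replicate 1 (adjusted p = 0.121) or 3 (0.122) or wild-type replicate 2 (0.0874) or 3 (0.0621).

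PSAD1 (AT4G02770), the other copy, had 1573, 1596 and 1527 CPM in the 35S:GRF1-GFP libraries, 1568, 1895 and 1679 in the 35S:GRF3-GFP libraries, 1765, 2059 and 1887 in the libraries labelled grf1/grf2/grf3, and 1857, 1879.5 and 1616 in the wild-type libraries. Again 35S:GRF1-GFP lay just below wild type. It was not called, with changes of -0.19 ± 0.10 in 35S:GRF1-GFP plants (edgeR adjusted p = 0.191) and -0.06 ± 0.10 in 35S:GRF3-GFP plants (0.757). The 250 bases before the start of each copy (TAIR10.1, RefSeq, chr1:754263-754512 and chr4:1230165-1230414, both on the minus strand, 5′ to 3′, capitals as above) are shown for the same reason as those of LHCB4.
PSAD2: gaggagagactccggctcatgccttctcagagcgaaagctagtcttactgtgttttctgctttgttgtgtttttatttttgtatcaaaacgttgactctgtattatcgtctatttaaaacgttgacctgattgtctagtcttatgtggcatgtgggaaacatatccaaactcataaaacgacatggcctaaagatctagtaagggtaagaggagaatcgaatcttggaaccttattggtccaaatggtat
PSAD1: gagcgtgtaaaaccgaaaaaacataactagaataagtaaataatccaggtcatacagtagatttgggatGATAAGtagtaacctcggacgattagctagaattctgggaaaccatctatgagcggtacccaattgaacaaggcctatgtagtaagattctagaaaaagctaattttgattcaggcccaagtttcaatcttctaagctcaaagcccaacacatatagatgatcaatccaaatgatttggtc
That of PSAD1 holds an I-box core, and that of PSAD2 holds neither motif. Whether these windows cover matching stretches was not tested.

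PSAL and PSAO, subunits on the side of photosystem I where LHCII docks, were higher in 35S:GRF1-GFP plants. PSAL (AT4G12800) had 1811, 1598 and 1451 CPM in the 35S:GRF1-GFP libraries, 1296, 1732 and 1415 in the 35S:GRF3-GFP libraries, 1597, 1789 and 1588 in the libraries labelled grf1/grf2/grf3, and 1334, 1265 and 1159.7 in the wild-type libraries. All 3 values labelled 35S:GRF1-GFP and all 3 labelled grf1/grf2/grf3 lay above wild type. The change of PSAL was 0.37 ± 0.11 in 35S:GRF1-GFP plants (edgeR adjusted p = 0.0221) and 0.40 ± 0.11 in the libraries labelled grf1/grf2/grf3 (0.0393). PSAO (AT1G08380) had 1457, 1305 and 1152 CPM in the 35S:GRF1-GFP libraries, 1104, 1340.3 and 1252 in the 35S:GRF3-GFP libraries, 1106, 1285 and 1237 in the libraries labelled grf1/grf2/grf3, and 989, 1023 and 981 in the wild-type libraries. Every one of its 9 values outside wild type lay above wild type, and it was called in 35S:GRF1-GFP plants only, at 0.39 ± 0.11 (edgeR adjusted p = 0.0104). The change of PSAO was 0.30 ± 0.11 in 35S:GRF3-GFP plants (0.0576, edgeR adjusted p).

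These higher calls were less firm than that of PSAD2 in 35S:GRF1-GFP plants. PSAO lost its call without 35S:GRF1-GFP replicate 1 (adjusted p = 0.07300), and PSAL lost its call in 35S:GRF1-GFP plants without replicate 1 (0.126) or 2 (0.0518) or wild-type replicate 2 (0.0589) or 3 (0.0894). The call of PSAL in the libraries labelled grf1/grf2/grf3 was lost without their replicate 2 (0.1500) or 3 (0.0568), wild-type replicate 2 (0.112) or 3 (0.145), or 35S:GRF1-GFP replicate 2 (0.0565), and with the length trend removed (0.0618), all by edgeR. The remaining 6 photosystem I genes beside PSAD1 (PSAE1, PSAF, PSAG, PSAH2, PSAK and PSAN) had changes between -0.19 and 0.15 in 35S:GRF1-GFP plants and were not called in any comparison. With the length trend removed, PSAD1, PSAF, PSAH2, PSAK and PSAN were called lower in 35S:GRF1-GFP plants, with changes of -0.35, -0.34, -0.40, -0.30 and -0.35 (edgeR adjusted p from 0.01100 to 0.0487). PSAG (AT1G55670), the most abundant of photosystem I per length, had 1567, 1325 and 1206 CPM in the 35S:GRF1-GFP libraries, 1075, 1383 and 1199 in the 35S:GRF3-GFP libraries, 1426, 1713 and 1430.0 in the libraries labelled grf1/grf2/grf3, and 1212, 1280.2 and 1369.6 in the wild-type libraries. Its values labelled grf1/grf2/grf3 lay above wild type and those of the overexpressors overlapped it.

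The 4 genes of electron transport and ATP synthesis were not called in any comparison of 2 genotypes. PETC (AT4G03280), the Rieske protein of the cytochrome b6f complex, had 770.4, 743 and 702 CPM in the 35S:GRF1-GFP libraries, 687, 811 and 815 in the 35S:GRF3-GFP libraries, 629, 607 and 600.1 in the libraries labelled grf1/grf2/grf3, and 627, 681 and 619 in the wild-type libraries. It was called in the test for any difference among the 4 genotypes (edgeR adjusted p = 0.0222), and both overexpressors lay above every wild-type library. Over wild type, PETC was called higher in 4 of 24 alternative settings in 35S:GRF3-GFP plants, DESeq2 among them, and in 2 in 35S:GRF1-GFP plants. Plastocyanin gene PETE2 (AT1G20340) had 1759, 1611 and 1540.2 CPM in the 35S:GRF1-GFP libraries, 1592, 1726 and 1791 in the 35S:GRF3-GFP libraries, 1688, 1607 and 1453 in the libraries labelled grf1/grf2/grf3, and 1597, 1573 and 1679 in the wild-type libraries, and its groups overlapped. ATPC1, the gamma subunit of ATP synthase, and FNR1, a ferredoxin-NADP reductase, had changes between -0.14 and 0.04 in 35S:GRF1-GFP plants.

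Of the small Rubisco subunit genes, RBCS1B (AT5G38430) separated the genotypes. It had 1225, 1066 and 1152 CPM in the 35S:GRF1-GFP libraries, 1062, 1182 and 1211 in the 35S:GRF3-GFP libraries, 724, 611 and 552 in the libraries labelled grf1/grf2/grf3, and 841, 838 and 832 in the wild-type libraries. Both overexpressors lay above every wild-type library, and the libraries labelled grf1/grf2/grf3 lay below. RBCS1B changed by 0.45 ± 0.10 in 35S:GRF1-GFP plants (edgeR adjusted p = 0.003100), by 0.46 ± 0.10 in 35S:GRF3-GFP plants (0.00595) and by -0.41 ± 0.10 in the libraries labelled grf1/grf2/grf3 (0.0209). It was called in both overexpressors under all 24 alternative settings. In the libraries labelled grf1/grf2/grf3 the call was lost without their replicate 2 (adjusted p = 0.0901) or 3 (0.1400), without wild-type replicate 2 (0.07200) and in a fit to those 2 genotypes only (0.0588).

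RBCS2B (AT5G38420) had 3190.0, 2860.1 and 2459.7 CPM in the 35S:GRF1-GFP libraries, 2063, 2956 and 2495 in the 35S:GRF3-GFP libraries, 2532, 2403 and 2051 in the libraries labelled grf1/grf2/grf3, and 2233, 2124 and 1694 in the wild-type libraries. The 35S:GRF1-GFP values lay above wild type, while the other genotypes overlapped it. Its change of 0.49 ± 0.14 in 35S:GRF1-GFP plants (edgeR adjusted p = 0.0128) was not called without 35S:GRF1-GFP replicate 1 (adjusted p = 0.0768) or wild-type replicate 3 (0.0675). RBCS1A (AT1G67090), the most abundant of the 43 per length in wild type, had 12838, 11275 and 11064 CPM in the 35S:GRF1-GFP libraries, 9331, 11050.4 and 11048 in the 35S:GRF3-GFP libraries, 10269, 9830.5 and 9019 in the libraries labelled grf1/grf2/grf3, and 9355, 9136 and 10325 in the wild-type libraries. All its 35S:GRF1-GFP values exceeded those of wild type, and the change of 0.29 ± 0.11 missed the threshold (edgeR adjusted p = 0.0674), though it was called in 5 of 24 alternative settings. RBCS3B (AT5G38410) had 5386, 5176 and 4645 CPM in the 35S:GRF1-GFP libraries, 4098, 5250.3 and 4909 in the 35S:GRF3-GFP libraries, 4945, 4286 and 4220.1 in the libraries labelled grf1/grf2/grf3, and 4646, 4096 and 4680.1 in the wild-type libraries. Its groups lay close together and it was not called.

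RBCS1B, RBCS2B and RBCS3B lie next to each other on chromosome 5. The 250 bases before RBCS1B (chr5:15385321-15385570) and RBCS2B (chr5:15382072-15382321), both on the minus strand (TAIR10.1, RefSeq, 5′ to 3′, capitals as above), are shown because RBCS2B did not follow RBCS1B below wild type in the libraries labelled grf1/grf2/grf3.
RBCS1B: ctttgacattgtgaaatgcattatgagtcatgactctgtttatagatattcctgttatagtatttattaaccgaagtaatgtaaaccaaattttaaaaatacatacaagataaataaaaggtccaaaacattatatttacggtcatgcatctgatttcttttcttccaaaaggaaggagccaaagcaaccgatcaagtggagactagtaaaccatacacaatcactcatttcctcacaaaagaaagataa
RBCS2B: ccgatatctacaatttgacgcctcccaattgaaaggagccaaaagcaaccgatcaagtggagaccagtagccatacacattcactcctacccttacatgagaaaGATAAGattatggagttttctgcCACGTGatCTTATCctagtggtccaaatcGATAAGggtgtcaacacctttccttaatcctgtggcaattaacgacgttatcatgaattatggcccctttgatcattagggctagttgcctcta
The window of RBCS2B holds a G-box and 3 I-box cores, counted on both strands, whereas that of RBCS1B holds neither motif. The windows are set by the annotated starts, and RBCS1B is annotated with 1894 exonic bp against 935 for RBCS2B. The end of the RBCS1B window resembles the stretch of the RBCS2B window up to its first I-box core. The 2 windows thus do not cover matching stretches, and their motifs cannot be compared copy for copy.

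Over all 43 windows of 250 bases, the G-box (CACGTG, its own reverse complement) was present in 8 (18.6%), against 6.49% of all 27443 windows. The I-box core (GATAAG, either strand) was present in 13 (30.2%), against 12.3%, and CCAAT (either strand) in 27 (62.8%), against 46.0%. The letters TGTCAGG, a motif reported for GRF proteins (either strand), were in 0 of 43, against 0.75% of all windows. The evening element of the clock, AAAATATCT (either strand), was in 1 of 43 (2.33%), against 2.36%. No motif searched contains another. Of the 8 genes with a G-box (LHCB2.3, LHCB4.1, LHCB6, LHCA4, PSBQ1, PSBQ2, PSAH2 and RBCS2B), 2 were called in 35S:GRF1-GFP plants, LHCB2.3 lower and RBCS2B higher, where 27.9% of the 43 and 21.8% of all genes were called.

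Within a library, the ratio of 2 sums needs no scaling between libraries, and it shows how the division among genes differed. Of the 15 ratios examined, which were chosen with the values known, 4 pairs are given in full. LHCII trimer genes over inner antenna genes gave 2.81, 2.79 and 2.73 in the 35S:GRF1-GFP libraries, 2.75, 2.698 and 2.86 in the 35S:GRF3-GFP libraries, 3.47, 3.47 and 3.24 in the libraries labelled grf1/grf2/grf3, and 3.19, 3.32 and 3.796 in the wild-type libraries. The 6 overexpressor values lay below the 6 others. LHCII trimer genes over RBCS genes gave 0.788, 0.846 and 0.822 in the 35S:GRF1-GFP libraries, 1.01, 0.982 and 0.988 in the 35S:GRF3-GFP libraries, 1.18, 1.49 and 1.405 in the libraries labelled grf1/grf2/grf3, and 1.201, 1.36 and 1.28 in the wild-type libraries. The same holds here, apart from 35S:GRF1-GFP lying below 35S:GRF3-GFP as well.

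LHCB4.2 over LHCB4.1 gave 0.0949, 0.104 and 0.111 in the 35S:GRF1-GFP libraries, 0.118, 0.111 and 0.105 in the 35S:GRF3-GFP libraries, 0.166, 0.186 and 0.178 in the libraries labelled grf1/grf2/grf3, and 0.156, 0.145 and 0.175 in the wild-type libraries. The overexpressors lay below both other genotypes, whose ranges overlapped. RBCS1B over RBCS1A gave 0.0954, 0.0945 and 0.104 in the 35S:GRF1-GFP libraries, 0.114, 0.107 and 0.1096 in the 35S:GRF3-GFP libraries, 0.0705, 0.0622 and 0.0612 in the libraries labelled grf1/grf2/grf3, and 0.0899, 0.0918 and 0.0806 in the wild-type libraries. The order was 35S:GRF3-GFP above 35S:GRF1-GFP, above wild type, above the libraries labelled grf1/grf2/grf3, with no overlap. PSAD2 over PSAD1 averaged 0.384 ± 0.0138 in 35S:GRF1-GFP, 0.427 ± 0.0267 in 35S:GRF3-GFP, 0.514 ± 0.0285 in libraries labelled grf1/grf2/grf3 and 0.537 ± 0.0553 in wild type (SD, n = 3 each). In contrast, photosystem I antenna over photosystem I subunits overlapped in every comparison, with means of 0.874 ± 0.0209, 0.897 ± 0.0174, 0.903 ± 0.0171 and 0.889 ± 0.02999 in the same order of genotypes. Over 60 exact two-sided permutation tests (15 ratios, 4 comparisons), the smallest p was 0.1, the smallest that 3 against 3 allows, and 0.207 after Benjamini-Hochberg adjustment.

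**Figure D3:**
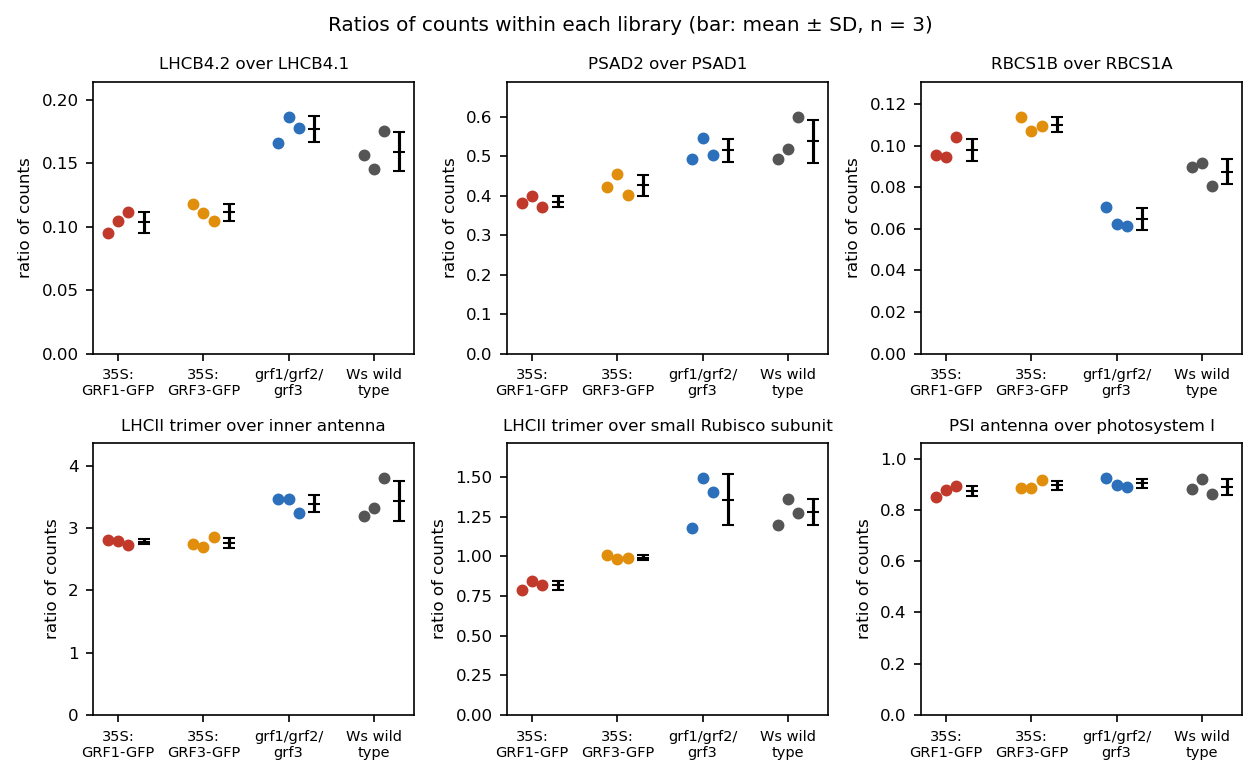
Ratios of counts within each library for 6 pairs, with 1 point per library and the mean ± SD (n = 3) beside them. In the upper left panel the overexpressor points lie between 0.0949 and 0.118 and the others between 0.145 and 0.186. In the lower right panel the 4 genotypes overlap.

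Transcript length and, more weakly, base composition moved with the changes across genes. The 43 genes had exonic lengths of 702 to 1894 bp (median 1219 bp), against a median of 1780 bp over all genes tested. Across genes, length and log2 fold change over wild type had Spearman correlations of -0.379 in 35S:GRF1-GFP plants, -0.40 in 35S:GRF3-GFP plants and -0.135 in the libraries labelled grf1/grf2/grf3 (17924 genes, which are not independent replicates). The 2736 genes whose length lay between the lower and upper quartiles of the members' lengths had median changes of 0.20, 0.18 and 0.06 in those comparisons, so short genes in general read higher in the overexpressors. The GC content of the 43 transcripts had a median of 43.4% (46.4% for the photosystem II antenna, 42.3% for RBCS), against 41.4% over all genes tested. Its Spearman correlations with the log2 fold change over wild type were -0.137 in 35S:GRF1-GFP plants, -0.133 in 35S:GRF3-GFP plants and -0.0402 in the libraries labelled grf1/grf2/grf3, over the same 17924 genes. The median of the 11 photosystem II antenna genes in 35S:GRF1-GFP plants was -0.41 as measured, -0.55 with the length trend removed, -0.21 with the GC trend removed and -0.33 with both removed. The median of the 4 RBCS genes was 0.37, 0.22, 0.35 and 0.22 under the same treatments.

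With the length trend removed, 15 members were lower in 35S:GRF1-GFP plants and 1 was higher, and with both trends removed 11 were lower and 1 higher. With both removed these were 25.6% and 2.33% of the 43, against 7.09% and 6.95% of all genes. RBCS1B was the higher one each time, and PSAL, PSAO and RBCS2B were no longer called (edgeR adjusted p with the length trend removed 0.262, 0.306 and 0.182). With the GC trend alone removed, 6 were lower and 8 higher, which are 14.0% and 18.6% of the 43, against 11.3% and 9.63% of all genes. In 35S:GRF3-GFP plants with the length trend removed, 9.3% of the 43 were lower, against 2.13% of all genes. In 35S:GRF1-GFP plants LHCB1.1, LHCB2.1, LHCB2.2, LHCB2.3, LHCB3 and PSAD2 were called lower and RBCS1B higher under all of these treatments. In 35S:GRF3-GFP plants only PSAD2 was called lower and only RBCS1B higher under all of them. The part of length in the calls of PSAL, PSAO and RBCS2B was not tested further.

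**Figure D4:**
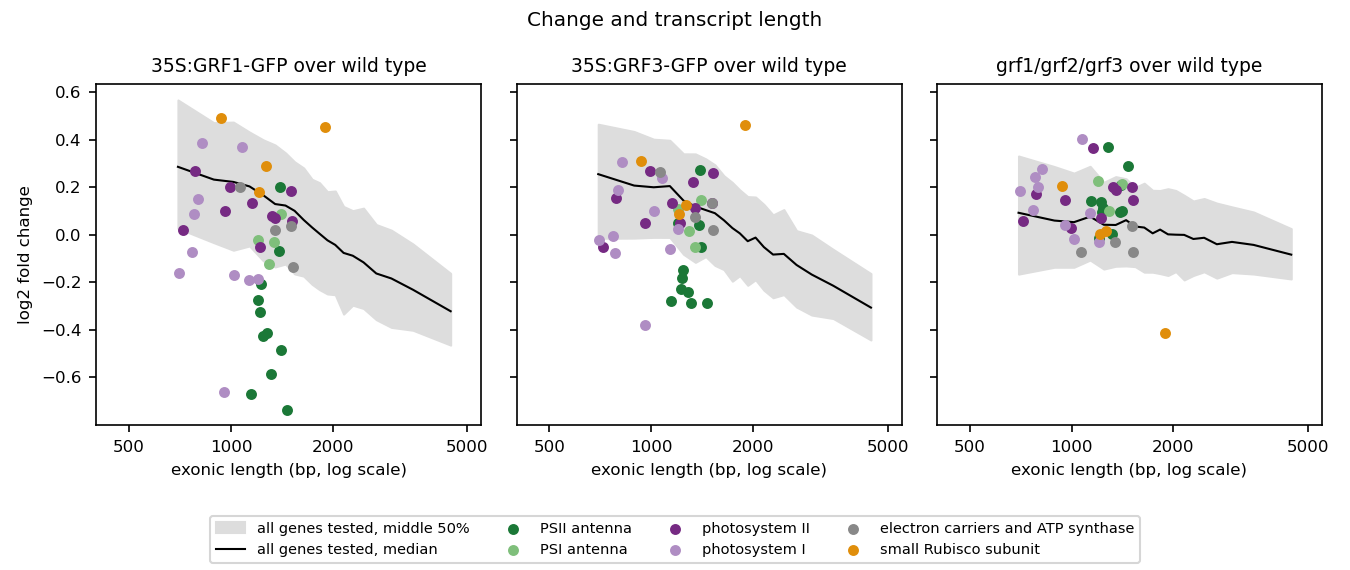
Log2 fold change over wild type against exonic length (log scale, base pairs) for the 43 genes, coloured by complex, with the median (line) and the middle 50% (grey) of all genes tested. In 35S:GRF1-GFP plants the all-gene median falls with length and 9 of the 11 photosystem II antenna points lie below the grey band.

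Set against each other, 35S:GRF1-GFP and 35S:GRF3-GFP plants differed in no member by edgeR (0 of 43 lower and 0 higher, where 1.14% of all genes were called, 0.652% lower and 0.485% higher). At an unadjusted p under 0.05, edgeR gave 9 members (20.9%, against 10.3% of all genes), and DESeq2 called 0. All 11 photosystem II antenna genes had a negative change of 35S:GRF1-GFP over 35S:GRF3-GFP, from -0.45 to -0.02 (median -0.28, against -0.01 over all genes). LHCB2.3 came nearest to the threshold at -0.45 ± 0.12 (edgeR adjusted p = 0.0864), followed by LHCB2.1 at -0.43 ± 0.12 (0.0965), and they were called lower in 4 and 3 of 24 alternative settings. In 35S:GRF1-GFP plants 10 of the 43 lay below and 1 above every 35S:GRF3-GFP library, where 9.62% and 8.51% of all genes did. That more antenna genes were called in 35S:GRF1-GFP than in 35S:GRF3-GFP plants does not show that the overexpressors differ in them.

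Counted by libraries alone, 13 members lay below and 10 above every wild-type library in 35S:GRF1-GFP plants, where 19.6% and 19% of all genes did. In 35S:GRF3-GFP plants the counts were 4 below and 6 above (15.5% and 16.8% of all genes). Those labelled grf1/grf2/grf3 had 1 below and 13 above (10.5% and 10.4% of all genes). The 13 stood among 36 members with a positive change there, where 9233 of the 17938 genes tested had one. Only 2 members passed the test as higher.

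Related genes outside the 43 were read from lists chosen by function. Their changes are from the reported fit, without removal of the length or GC trend. Of 20 other light-reaction genes tested, 4 were higher and 3 lower in 35S:GRF1-GFP plants, 4 were higher and 0 lower in 35S:GRF3-GFP plants, and 0 were higher and 1 lower in the libraries labelled grf1/grf2/grf3. Among all genes, 10% were higher and 11.8% lower in 35S:GRF1-GFP plants, 6.07% and 6.34% in 35S:GRF3-GFP plants, and 2.11% and 2.77% in the libraries labelled grf1/grf2/grf3. FNR2, the second leaf ferredoxin-NADP reductase, had 778, 793 and 706 CPM in the 35S:GRF1-GFP libraries, 566, 719.7 and 623 in the 35S:GRF3-GFP libraries, 465, 436 and 436 in the libraries labelled grf1/grf2/grf3, and 422, 462 and 339.9 in the wild-type libraries. Both overexpressors lay above every other library, with changes of 0.89 ± 0.11 in 35S:GRF1-GFP (edgeR adjusted p = 5.77e-06) and 0.64 ± 0.11 in 35S:GRF3-GFP plants (0.000874), while its partner FNR1 among the 43 changed by 0.04 ± 0.10 and 0.14 ± 0.10 and was not called. PSAE2, a photosystem I subunit copy, changed by 0.72 ± 0.12 in 35S:GRF1-GFP and 0.63 ± 0.12 in 35S:GRF3-GFP plants (edgeR adjusted p = 0.000263 and 0.00243), and PSAE1 was not called. FD2, the main leaf ferredoxin, changed by -0.78 ± 0.14 in 35S:GRF1-GFP plants (edgeR adjusted p = 0.000646). It also lay below every wild-type library in the other genotypes and was not called there. Its changes were -0.35 ± 0.14 in 35S:GRF3-GFP plants and -0.44 ± 0.14 in the libraries labelled grf1/grf2/grf3 (edgeR adjusted p = 0.101 and 0.0738).

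A further copy of CP29, LHCB4.3, was a low-level gene with 11.99, 13.2 and 14.99 CPM in the 35S:GRF1-GFP libraries, 18.4, 24.2 and 22.3 in the 35S:GRF3-GFP libraries, 12.99, 9.15 and 13.1 in the libraries labelled grf1/grf2/grf3, and 23.6, 18.05 and 30.3 in the wild-type libraries. The 35S:GRF1-GFP and grf1/grf2/grf3 values lay below those of wild type and 35S:GRF3-GFP. Its change was -0.78 ± 0.17 in 35S:GRF1-GFP plants (edgeR adjusted p = 0.00253), -0.91 ± 0.18 in the libraries labelled grf1/grf2/grf3 (0.00268) and -0.70 ± 0.17 in 35S:GRF1-GFP over 35S:GRF3-GFP plants (0.0342). In the libraries labelled grf1/grf2/grf3 the change of LHCB4.3 was thus negative and that of LHCB4.2 positive. LHCB1.5, a further abundant trimer gene outside the 43, changed by -0.30 ± 0.13 in 35S:GRF1-GFP and -0.30 ± 0.13 in 35S:GRF3-GFP plants and was not called (edgeR adjusted p = 0.0863 and 0.118). LHCB1.4, another trimer gene outside the 43, changed by 0.06 ± 0.24 in 35S:GRF1-GFP and -0.38 ± 0.24 in 35S:GRF3-GFP plants. Its change was 0.54 ± 0.24 in the libraries labelled grf1/grf2/grf3 and 0.44 ± 0.24 in 35S:GRF1-GFP over 35S:GRF3-GFP plants. None of these changes of LHCB1.4 was called (edgeR adjusted p = 0.887, 0.338, 0.263 and 0.586).

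In 35S:GRF1-GFP plants 1 of 16 Calvin cycle genes and 1 of 7 genes of antenna import and state transitions were called, where 21.8% of all genes were, and in 35S:GRF3-GFP plants 1 of 16 and 2 of 7, where 12.4% were. Of 16 Calvin cycle genes, CP12-2, a regulator of the cycle, was the 1 called in each overexpressor, with changes of 0.37 ± 0.10 in 35S:GRF1-GFP and 0.33 ± 0.10 in 35S:GRF3-GFP plants (edgeR adjusted p = 0.0119 and 0.0393). CP12-2 and PSAE2 have less than a kilobase of exon. The shortest 899 genes tested (median 697 bp) had median changes of 0.29 in 35S:GRF1-GFP and 0.25 in 35S:GRF3-GFP plants. The part of length in the calls of CP12-2 and PSAE2 was not tested. None of the 16 was called in the libraries labelled grf1/grf2/grf3 by edgeR, with 2 at an unadjusted p under 0.05, where 18.3% of all genes had one. Of 7 genes of antenna import and state transitions, TAP38, the phosphatase that acts on LHCII, was higher in 35S:GRF1-GFP (0.66 ± 0.10) and 35S:GRF3-GFP plants (0.59 ± 0.10, edgeR adjusted p = 9.04e-05 and 0.000874). CPFTSY, a receptor in antenna protein insertion, was higher in 35S:GRF3-GFP plants only (0.43 ± 0.13, edgeR adjusted p = 0.03500), and the difference between the overexpressors was not called (-0.17 ± 0.13).

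Among 10 regulators of photosynthesis genes, 3 were lower in 35S:GRF1-GFP plants, 1 was lower in 35S:GRF3-GFP plants and 1 was higher in the libraries labelled grf1/grf2/grf3. The shares over all genes were 11.8% lower, 6.34% lower and 2.11% higher in those comparisons. SIG1, a sigma factor of the chloroplast RNA polymerase, had 79.3, 79.1 and 72.7 CPM in the 35S:GRF1-GFP libraries, 114, 115 and 121 in the 35S:GRF3-GFP libraries, 131, 159 and 148 in the libraries labelled grf1/grf2/grf3, and 162, 146 and 162 in the wild-type libraries. The 35S:GRF1-GFP values were the lowest, the 35S:GRF3-GFP values lay between, and the other genotypes overlapped. SIG1 changed by -1.02 ± 0.09 in 35S:GRF1-GFP, -0.42 ± 0.09 in 35S:GRF3-GFP plants and -0.60 ± 0.09 in 35S:GRF1-GFP over 35S:GRF3-GFP plants (edgeR adjusted p = 5.81e-08, 0.00501 and 0.000609). The light-responsive sigma factor SIG5 changed by -0.80 ± 0.14 and the GATA factor GNC by -0.72 ± 0.13 in 35S:GRF1-GFP plants (edgeR adjusted p = 0.000441 and 0.000446).

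GLK1 and GLK2 encode activators of antenna and chlorophyll genes. GLK1 had 83.9, 88.03 and 79.6 CPM in the 35S:GRF1-GFP libraries, 86.2, 97.2 and 71.2 in the 35S:GRF3-GFP libraries, 109, 128 and 163 in the libraries labelled grf1/grf2/grf3, and 90.03, 72.3 and 44.4 in the wild-type libraries. The values labelled grf1/grf2/grf3 lay above all others, and wild-type replicate 3 was lowest of all. GLK1 changed by 0.91 ± 0.22 in the libraries labelled grf1/grf2/grf3 (edgeR adjusted p = 0.0486). GLK2 was not called, at -0.26 ± 0.10, -0.15 ± 0.10 and 0.20 ± 0.10 in the 3 comparisons with wild type.

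**Figure D5:**
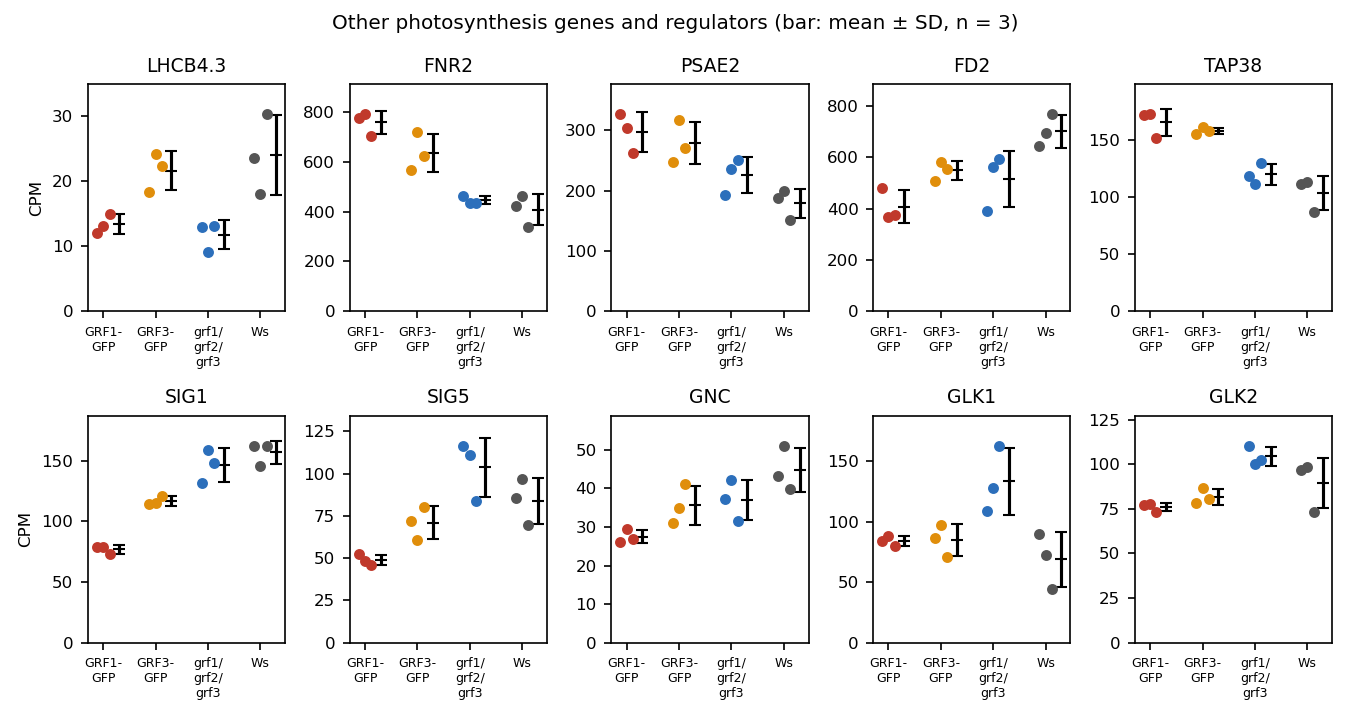
CPM of 10 genes outside the 43 in each library (points) by genotype, with mean ± SD (n = 3). SIG1 is lowest in 35S:GRF1-GFP libraries (72.7 to 79.3 CPM) and FNR2 is highest there (706 to 793 CPM).

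Clock genes and markers of other organs also differed between genotypes, and their part in the results for the 43 genes was not tested. In 35S:GRF1-GFP plants the morning genes CCA1 and LHY changed by -0.92 ± 0.14 and -1.42 ± 0.20, and the evening genes ELF4 and FKF1 and the clock output GRP7 by 3.14 ± 0.20, 2.45 ± 0.19 and 3.13 ± 0.14 (all 5 called by edgeR, the largest adjusted p being 0.000231). In 35S:GRF3-GFP plants 4 of the 5 were called, LHY at -0.74 ± 0.19, ELF4 at 0.77 ± 0.24, FKF1 at 0.92 ± 0.21 and GRP7 at 1.65 ± 0.14 (largest edgeR adjusted p 0.0366). In the libraries labelled grf1/grf2/grf3 only GRP7 of the 5 was called, at 1.199 ± 0.14 (edgeR adjusted p = 2.09e-05). Over all genes, 21.8%, 12.4% and 4.88% were called in these comparisons. LHCB genes are known to be under clock control in this species. Of 6 root markers tested from a list of 8, 5 were lower in 35S:GRF1-GFP plants, where 11.8% of all genes were. In 35S:GRF3-GFP plants 1 was lower (6.34% of all genes), and in the libraries labelled grf1/grf2/grf3 5 were (2.77% of all genes). The summed level of the root markers, most of it PYK10, was 875 to 964 CPM, 647 to 992 CPM and 958 to 1241 CPM in those groups and 884 to 1022 CPM in wild type. The 4 seed storage markers summed to 0 to 0.411 CPM in 35S:GRF1-GFP, 0 to 0.275 CPM in 35S:GRF3-GFP, 0.487 to 38.7 CPM in grf1/grf2/grf3 and 5.84 to 37.1 CPM in wild-type libraries. The 4 floral markers summed to 8.63 to 9.98 CPM, 4.55 to 7.99 CPM, 2.44 to 5.85 CPM and 1.76 to 3.93 CPM in the same order. Most of that sum in 35S:GRF1-GFP plants was PI (8.39 ± 0.622 CPM, against 1.91 ± 0.661 CPM in wild type, mean ± SD), while AP1 lay below wild type (0.122 ± 0.108 CPM, against 0.467 ± 0.104 CPM). Of the senescence markers, SAG12 was at 0 in all 12 libraries, and both together summed to 17.997 to 50.4 CPM, 20.9 to 34.4 CPM, 13.8 to 30.9 CPM and 7.13 to 17.5 CPM.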

How the data were processed

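The authors deposited 1 file for each of the 12 libraries, with a raw, unnormalized count for every locus. Per the submitters' processing notes, reads were handled with Trimmomatic, TopHat2 2.0.14, HTSeq and DESeq2 on build TAIR10. The strand setting, annotation release and read length are not given in the sources used here. Per the labels' protocols, libraries were made from isolated mRNA. Rows that name no gene were left out.

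Counts were scaled by trimmed mean of M values (TMM), filtered (edgeR filterByExpr, count minimum 10, total minimum 15) and tested with edgeR 4.0.16 (limma 3.58.1, R 4.3.3) in 1 quasi-likelihood fit to all 12 libraries (8 residual degrees of freedom, common biological coefficient of variation 0.107), with Benjamini-Hochberg adjustment over 17938 genes and a threshold of 0.05. CPM are TMM-scaled. SE is the log2 fold change over the square root of F. Ratios were tested by exact permutation (scipy 1.17.1). Lengths, positions and sequences come from RefSeq TAIR10.1, whose chromosome 1 length (30427671 bp) is that of TAIR10, and Ws reads were counted against this Col reference. Exonic length is that of the longest transcript, and shared sequence was sought in exact windows of 50 bases, and reads of another length or with mismatches would share other amounts.

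Alternatives were DESeq2 1.42.0, other size factors, other filters, a replicate block, removal of length or GC trends, ribosomal loci left out, fits to 2 genotypes and each library left out. The GC alternatives were chosen after seeing the data. Members, lists and tests were chosen with earlier results of these data known. Named with values were the members called in a comparison, the most abundant of each complex per length, members that share sequence, others near the threshold, and up to 4 called genes per list. Values in full for 4 of 15 ratios were chosen after they were seen.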

Additional observations from a re-analysis of the deposited data

Results flagged for a closer look

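Reads that overlapped more than 1 gene were set apart by the counting and enter no gene's count. They took at least 0.684% of all rows in every 35S:GRF1-GFP library and at least 0.698% in every 35S:GRF3-GFP library, against 0.346% to 0.583% in the wild-type libraries, and were noted because they lie outside the counts compared and above every wild-type library. Alignments with several positions are part of that total, at 60.4% to 63.6%, 54.4% to 62.8% and 64.1% to 73.4% of it in these groups. Without them the shares were 1.78% to 1.89%, 1.83% to 1.87% and 1.3% to 1.63%. LHCB2.3, LHCB3, LHCB1.3, LHCB6, PSAH2 and FNR1 overlap a neighbour on the opposite strand over 38.6%, 10.98%, 5.0%, 4.68%, 19.1% and 7.19% of their 50-base windows. How many of these reads came from the members cannot be told from the files.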

How the results depend on the processing

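Counts of called members below are those with an adjusted p under 0.05 by edgeR unless DESeq2 is named. In 35S:GRF1-GFP plants, the 4 higher became 7 with upper-quartile factors, 8 with the GC trend removed, and 1 with the length trend removed, with a replicate block and the length trend removed, or with length and GC trends removed. The 8 lower became 15 with the length trend removed, with or without the replicate block. The median log2 change of the 43 genes, 0.02, became -0.15 with the length trend removed, with or without the block, and -0.14 with both trends removed. In 35S:GRF3-GFP plants, the 1 higher became 5 with upper-quartile factors, 2 without a filter, 4 with the GC trend removed and 4 by DESeq2, and the 1 lower became 4 with the length trend removed (with or without the block) and 2 with both trends removed. In the libraries labelled grf1/grf2/grf3, the 2 higher became 1 with the length trend removed, with or without the block, and 1 in a fit to 2 genotypes only, where the 1 lower became 0. Between the overexpressors, 0 lower became 2 with the block and length trend removed and 2 in a fit to those genotypes only. Leaving out 1 library at a time gave 1 to 6 higher and 6 to 9 lower (medians -0.04 to 0.06) in 35S:GRF1-GFP, 1 to 6 and 0 to 1 (0.00 to 0.12) in 35S:GRF3-GFP, 0 to 4 and 0 to 1 (0.05 to 0.16) in grf1/grf2/grf3, and 0 and 0 to 1 (-0.15 to -0.02) in 35S:GRF1-GFP over 35S:GRF3-GFP plants, and 10 to 15 members differing among genotypes. Beyond the length trend's construction the causes were not tested. None of the 17 called changes of members reversed in any of the 24 settings. The median over the 43 genes changed sign in 6 of 24 settings in 35S:GRF1-GFP plants and in 4 of 24 in 35S:GRF3-GFP plants, each time where the length trend was removed or 1 library was left out.

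Over all genes, calls in 35S:GRF1-GFP plants, 3911 as reported, were 2474 with the length trend removed. In 35S:GRF3-GFP plants, 2226 became 894. The replicate block alone changed no call among the members: 12, 2, 3 and 0 were called with it and without it. The labels name a randomized complete-block design with 3 replications but do not say that the replicate numbers are its blocks. Same-numbered libraries of different genotypes had correlations of deviations of -0.131 to 0.138 over 18 pairs, with 1 over 0.1, and 4 of 12 libraries correlated best with their own number, so the numbers were not taken as a pairing. Near-identical copies limit single LHCB1, LHCB2 and RBCS genes.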
